A study of Mus musculus with 9 samples.

Results

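The genes described here make, carry, sense and remove retinoic acid. They are the retinaldehyde dehydrogenases Aldh1a1, Aldh1a2 and Aldh1a3, the retinoic acid binding proteins Crabp1 and Crabp2, the receptors Rarb and Rarg, the retinoic acid hydroxylase Cyp26b1 and the retinol transporter Stra6. These 9 of the 24341 genes listed were picked by name, partly because Aldh1a2 reads were raised in Atm-/- mouse embryonic fibroblasts (MEFs) and not in the other genotypes. Differences between genotypes in these 9 genes are therefore given as descriptions without p-values. Tests are given for 58 further genes of retinoid metabolism, transport, receptors and response. The lists of these further genes were also chosen with earlier results of these data known. Their p-values therefore do not come from an independent choice of genes.

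Poly(A) RNA of MEFs, which are connective tissue cells grown from mouse embryos, was sequenced in 3 WT, 3 Atm-/- and 3 Sirt6-/- samples. Atm is a kinase of the DNA damage response and Sirt6 a chromatin deacylase, and the study asked how their loss alters metabolism. Every sample is labelled strain C57BL/6 and was grown in DMEM with fetal bovine serum, with no treatment, age or embryo named. The source mice named in the labels also include P53-/- and Atm-/-P53-/- animals without being tied to samples, and the methods of the study describe immortalized Atm-/- p53-/- MEFs as well as Sirt6-/- MEFs received from separate laboratories. Genotype and cell line of origin cannot be told apart here. Nothing states that samples of 1 genotype came from separate cultures, so p-values measure only the spread between these samples.

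Retinol enters cells from serum, where it travels on retinol-binding protein, and is oxidized reversibly to retinaldehyde and then irreversibly to retinoic acid by the Aldh1a enzymes. Retinoic acid binds Crabp proteins in the cytoplasm and the receptors RARα, RARβ and RARγ in the nucleus, which pair with RXR on DNA repeats called retinoic acid response elements. Cyp26 enzymes break retinoic acid down. In the embryo the pathway patterns the limb, hindbrain and heart, and Aldh1a2 is its main early source of retinoic acid.

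A response element is built from a pair of hexamers in the same direction, and the form with 5 bases between them is the classical one. RefSeq promoter windows from 250 bases before to 50 after each start (GRCm38.p6) were available for 7 of the 9 genes, with 12 starts. They were searched on both strands for any pair of hexamers with 5 bases between, where a hexamer was AGGTCA with G also allowed as its first base and T at the third. The match was found in 32 of 32851 promoters (0.0974%), including Rarb and, among the further genes, Cyp26a1. Both are shown with the hexamers in capitals because their transcripts are read below. Rarb lies at chr14:16575499-16575543, minus strand, and Cyp26a1 at chr19:37697762-37697806, printed on the minus strand while the gene runs on the plus strand.
Rarb: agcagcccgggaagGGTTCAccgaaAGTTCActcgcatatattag
Cyp26a1: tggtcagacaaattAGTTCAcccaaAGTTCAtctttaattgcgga
The element lay 53 to 37 bases before the RefSeq start of Rarb, which is internal to the gene as annotated in GENCODE M21, and 32 to 16 bases before that of Cyp26a1. With 2 bases between the hexamers the match was in 0.268% of promoters and with 1 base in 0.222%. The promoters of the 7 genes searched held neither form, and of the further genes Bco1 held the form with 1 base. A match is a description of letters in the window only.

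Libraries held 32187040 to 33837949 counted reads, and 3 reads, taken as the limit of detection, corresponded to 0.0856 to 0.0959 CPM, counts scaled to library size with TMM factors. Intervals on ratios of reads cover counting error only. WT replicate 2 stood apart from the other WT samples, with a chi-square per gene of 15.1 and 16.4 against 5.24 to 6.88 for all other pairs within a genotype. Sirt6 had 4, 5 and 7 reads in Sirt6-/- and 402 to 487 in WT. Atm reads were not lower in Atm-/- (3443 to 3768) than in WT (1536 to 1627), so they do not check that label, and Atm-/- stands below for the libraries so labelled. Trp53 had 806 to 946 reads in Atm-/- and 6563 to 7108 in WT. Fibroblast markers were present in every genotype. Their summed level was 27136 to 30073 CPM in WT, 17711 to 18203 in Sirt6-/- and 8607 to 8881 in Atm-/-. Thy1 alone of the 8 was under 1 CPM on average in Sirt6-/-. Means of Col1a1, Col3a1, Pdgfra and Fn1 stood in the order of this sum. Vim was highest in WT, and the knockouts overlapped. Thy1 was higher in Atm-/- than in WT (87.3 against 24.4 CPM). Col1a2 was higher in Sirt6-/- than in WT (7805 against 4730 CPM). Twist2 was above WT in both knockouts, by 1.67 in Atm-/- and 2.97 in Sirt6-/- on the log2 scale.

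The 9 genes gave a different set of abundant transcripts in each genotype. Per length, in RPKM, which divides reads by transcript length and library size, Aldh1a1 (64.5 ± 21.2, SD, n = 3) and Rarg (30.0 ± 0.74) led in WT, and the other 7 were each under 1 RPKM. In Atm-/- the order was Crabp1 (265 ± 3.86), Rarg (59.0 ± 3.66) and Crabp2 (45.7 ± 5.16), followed by Aldh1a1 (2.82 ± 0.223) and Aldh1a2 (2.16 ± 0.41), whose samples lay close together. In Sirt6-/- Rarg (66.9 ± 1.01) stood above Cyp26b1 (6.29) and Crabp1 (5.21), Crabp2 followed at 1.27, and the remaining 5 had means of 0.0182 to 0.106 RPKM.

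**Figure D1:**
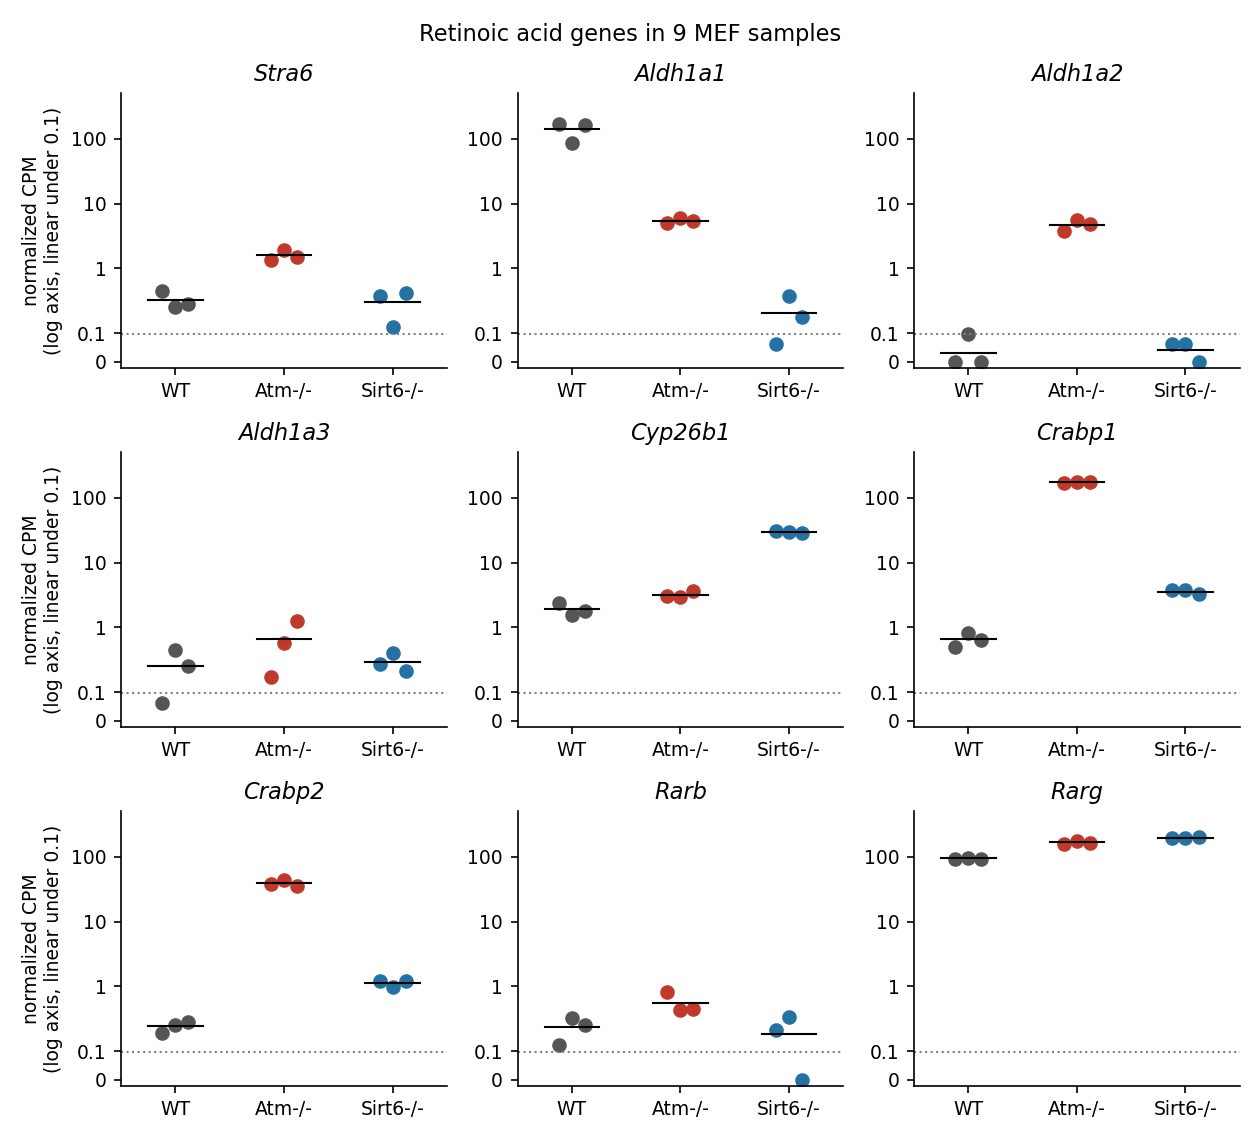
Normalized CPM of the 9 genes in each of the 3 WT (grey), 3 Atm-/- (red) and 3 Sirt6-/- (blue) samples, on an axis that is logarithmic above 0.1 CPM and linear below; short lines are means and the dotted line is the limit of 3 reads. Crabp1 and Crabp2 separate the genotypes, Aldh1a2 is above 3 CPM in the Atm-/- samples only, Cyp26b1 stands highest in Sirt6-/- and Aldh1a1 in WT.

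Of the 9 genes tested for Atm-/- against WT, 7 were higher in every Atm-/- sample than in any WT sample, 1 was lower and 1 overlapped. Of all 13283 genes tested there, 72.6% did not overlap, 37.5% being higher and 35.1% lower. In Sirt6-/- against WT, Aldh1a2, Aldh1a3 and Rarb had too few reads to pass the filter, and of the other 6, 4 were higher, 1 lower and 1 overlapped, where 79.0% of all genes did not overlap, 40.6% higher and 38.5% lower. Atm-/- against Sirt6-/- gave 6 higher, 2 lower and 1 overlapping, beside 78.2% of all genes without overlap, 38.8% higher and 39.4% lower. The median log2 difference of the tested members was 1.38, 1.64 and 2.37 in the 3 comparisons, against 0.015, 0.024 and 0.002 over all genes. Because the genes were chosen with these comparisons in view, nothing is read from these counts and medians. The first and second comparisons share the WT samples. Without WT replicate 2, the log2 differences of Atm-/- from WT were 8.24 for Crabp1, 7.34 for Crabp2, 1.54 for Rarb, 0.83 for Rarg, 0.61 for Cyp26b1 and 2.10 for Stra6, and those of Sirt6-/- were 2.63 for Crabp1, 2.24 for Crabp2, 1.08 for Rarg, 3.83 for Cyp26b1 and -0.26 for Stra6.

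Stra6, the membrane transporter that takes retinol from its serum carrier, lies on chromosome 9 from 58063788 to 58153996 (GRCm38, GENCODE M21). Reads per sample were 47, 67 and 50 for Atm-/-, 14, 8 and 9 for WT, and 12, 4 and 14 for Sirt6-/-. The Atm-/- samples lay above all others, and WT and Sirt6-/- overlapped. The mean level was 1.58 ± 0.293 CPM in Atm-/- against 0.327 ± 0.0983 in WT, a log2 difference of 2.25 (SE 0.38). Sirt6-/- differed from WT by -0.10 (SE 0.56) on the log2 scale, and this sign turned when WT replicate 1 (0.16) or Sirt6-/- replicate 2 (0.27) was left out. In bulk RNA, fewer cells expressing a gene and less RNA per cell cannot be told apart, here and below.

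Aldh1a2, the embryonic retinaldehyde dehydrogenase, lies on chromosome 9 from 71215789 to 71296243. It had 129, 192 and 161 reads in Atm-/-, 0, 3 and 0 in WT, and 2, 2 and 0 in Sirt6-/-. Every Atm-/- sample was far above the limit of detection, and no sample of the other genotypes exceeded it. In level this was 4.65 ± 0.884 CPM in Atm-/-, or 147 times the WT level from summed reads (95% counting interval 50.0 to 715). The fitted log2 difference of 7.03 (SE 0.52) depends on the few WT reads, all from WT replicate 2, and was 10.28 without that sample.

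Aldh1a1, a cytosolic isoform active in adult tissues, lies on chromosome 19 from 20492715 to 20643465 and was highest in WT. It had 5325, 2708 and 5156 reads in WT, 175, 207 and 184 in Atm-/-, and 2, 12 and 6 in Sirt6-/-. The 3 genotypes did not overlap, and WT replicate 2 was the lowest WT sample. The WT level of 139 ± 45.5 CPM was 25.5 times that of Atm-/- (5.46 ± 0.431; 95% counting interval 23.4 to 27.8) and 685 times that of Sirt6-/- (0.204 ± 0.156; 443 to 1121). On the log2 scale Aldh1a1 was lower than WT, at -4.68 (SE 0.22) and -9.39 (SE 0.36), or -4.93 and -9.65 without WT replicate 2. Atm-/- stood above Sirt6-/- by 4.73 (SE 0.34). Without Sirt6-/- replicate 2, which held 12 of the 20 Sirt6-/- reads, these were -10.12 from WT and 5.46 between the knockouts.

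Aldh1a3 (chromosome 7 from 66390890 to 66427517), the remaining enzyme of the family, had few reads in all genotypes. It had 2, 14 and 8 reads in WT, 9, 13 and 7 in Sirt6-/-, and 6, 20 and 43 in Atm-/-. The genotypes overlapped, and the log2 difference of 1.38 (SE 0.70) between Atm-/- and WT was 0.55 without Atm-/- replicate 3 and was 2.05 without WT replicate 2.

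Summed per length, the 3 Aldh1a transcripts were at 40.3 to 77.4 RPKM in WT (median 76.2), 4.39 to 5.77 in Atm-/- and 0.140 to 0.329 in Sirt6-/-. Nearly all of the WT sum was Aldh1a1. In Atm-/- Aldh1a2 (2.16 RPKM) and Aldh1a1 (2.82 RPKM) were of similar level, and their sum stayed below every WT sample.

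**Figure D2:**
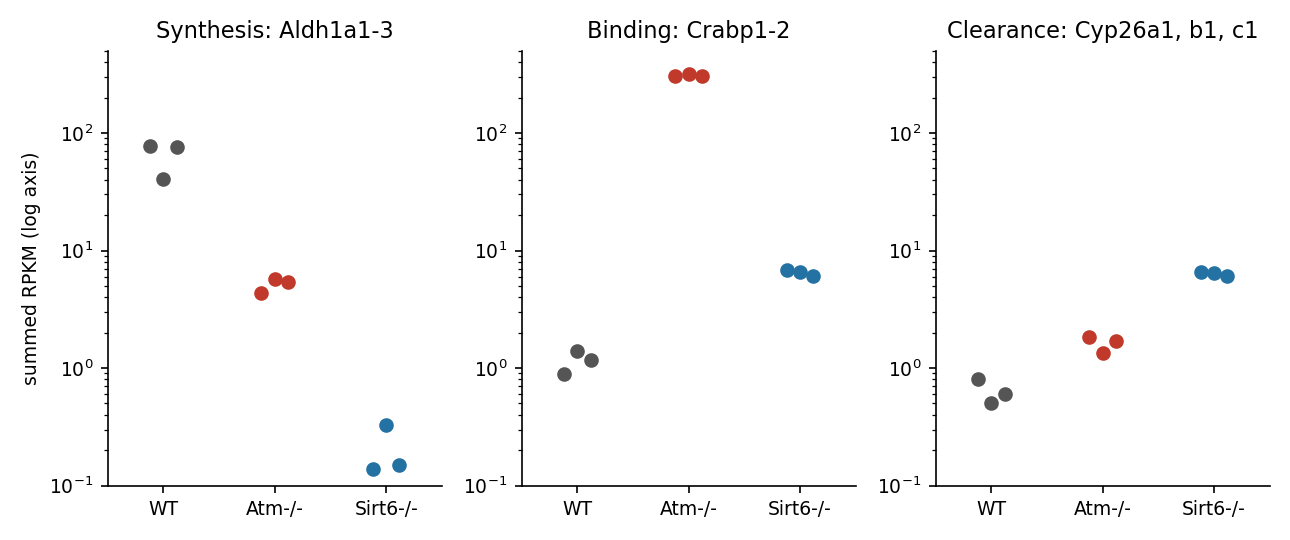
Summed RPKM per sample of the Aldh1a, Crabp and Cyp26 transcripts, on a log axis. The Aldh1a sum is highest in WT (40.3 to 77.4), the Crabp sum in Atm-/- (305 to 320) and the Cyp26 sum in Sirt6-/- (6.13 to 6.58).

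The summed markers of mesothelium, the lining of the body cavities and heart, stood in the same order of genotypes as Aldh1a1. The summed level of Wt1, Upk3b, Upk1b, Msln, Lrrn4 and Tbx18 was 1975 to 2585 CPM in WT, 478 to 502 in Atm-/- and 104 to 117 in Sirt6-/-. All 6 reached a mean of 1 CPM in WT and Atm-/- and 2 did so in Sirt6-/-, where none was at 0 reads in all samples but Wt1 was at 0.12 to 0.338 CPM. Tbx18 did not follow this order, with means of 54.5 CPM in WT, 21.3 in Atm-/- and 64.7 in Sirt6-/-, where it made up most of the sum. WT replicate 2, the lowest in Aldh1a1 of the WT samples, was also the lowest of them in this sum and in the fibroblast, epithelial, haematopoietic and neural sums. The part of these cells or genes in the Aldh1a1 values was not tested. Aldh1a2, with at most 3 reads in a WT sample, did not follow the marker sum.

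The other lists differed too: epithelial markers summed to 88.9 to 95.6 CPM in Atm-/-, 22.8 to 27.2 in WT and 19.7 to 23.2 in Sirt6-/-, in the same order of genotypes neural markers to 25.7 to 35.9, 2.69 to 3.04 and 28.9 to 30.2, endothelial markers to 9.81 to 12.5, 3.11 to 5.15 and 0.649 to 0.99 (Tek at 0 in Atm-/-), and haematopoietic markers to 3.40 to 3.61, 10.7 to 11.8 and 3.53 to 4.20. Among the epithelial markers, the level in Atm-/- lay mostly in Krt19 (46.0 CPM, against 2.14 in WT) and Krt18 (28.2 against 7.21), while Epcam was at 1.20 against 1.14. The neural level in Sirt6-/- lay mostly in Tubb3 (29.3 CPM, against 1.87 in WT). Sox2, Sox10 and Elavl3 had 6, 17 and 4 reads there, against 36, 38 and 15 in WT. In Atm-/- the neural level lay mostly in Sox2 (18.96 CPM) and Tubb3 (10.54), with 40 reads of Sox10 and 4 of Elavl3. The endothelial level in Atm-/- lay mostly in Kdr (10.98 CPM, against 3.37 in WT). Pecam1, Cdh5 and Tek had 5, 16 and 0 reads there, against 12, 18 and 22 in WT. At 1 CPM or more, in the same order of genotypes, were 6 of 7 epithelial markers in each genotype, 2, 1 and 1 of 4 neural, 1, 1 and 0 of 4 endothelial and 1, 2 and 2 of 3 haematopoietic. Their part in the values of Aldh1a2, the Crabp genes and Cyp26b1 was not tested.

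**Figure D3:**
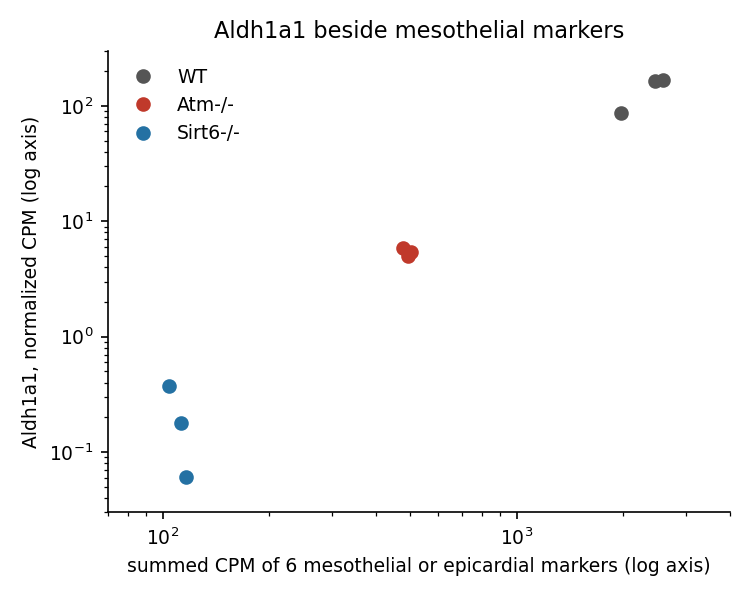
Aldh1a1 against the summed level of 6 mesothelial or epicardial markers in each sample, both in normalized CPM on log axes. WT samples lie at 1975 to 2585 CPM of markers, Atm-/- at 478 to 502 and Sirt6-/- at 104 to 117, and the genotypes stand in the same order in Aldh1a1.

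Crabp1 (chromosome 9 from 54764748 to 54773110), which holds retinoic acid in the cytoplasm, had 16, 26 and 20 reads in WT, 121, 122 and 108 in Sirt6-/-, and 5930, 6171 and 5879 in Atm-/-. The genotypes stood in that order without overlap. Mean levels were 0.656 ± 0.166, 3.57 ± 0.291 and 174 ± 2.55 CPM. Against WT the log2 difference was 8.03 (SE 0.10) in Atm-/- and 2.44 (SE 0.28) in Sirt6-/-.

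Crabp2 (chromosome 3 from 87948666 to 87953376), which delivers retinoic acid to its receptor, stood in the same order. It had 6, 8 and 9 reads in WT, 40, 32 and 40 in Sirt6-/- and 1337, 1534 and 1188 in Atm-/-. Its log2 difference from WT was 7.30 (SE 0.17) in Atm-/- and 2.21 (SE 0.42) in Sirt6-/-. Together the pair summed to 0.884 to 1.40 RPKM in WT, 6.02 to 6.81 in Sirt6-/- and 305 to 320 in Atm-/-.

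**Figure D4:**
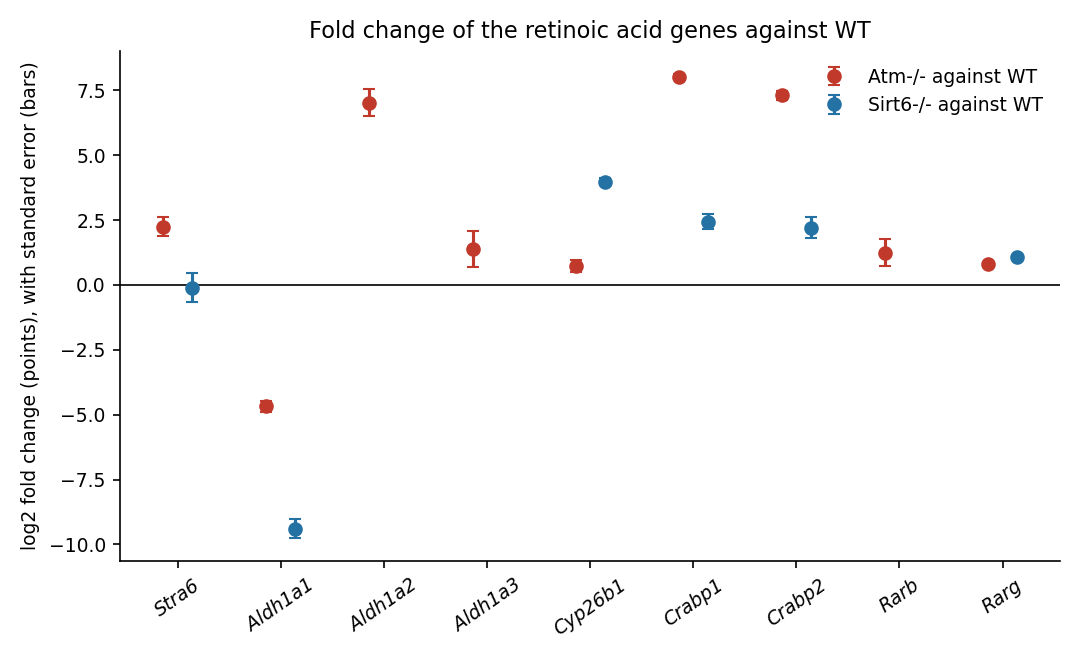
Fitted log2 fold changes of the 9 genes from WT, with Atm-/- in red, Sirt6-/- in blue and bars for the standard error, without tests. In Atm-/- Aldh1a2 (7.03), Crabp1 (8.03) and Crabp2 (7.30) stand highest; in Sirt6-/- Cyp26b1 (3.97) is the highest and Aldh1a1 (-9.39) the lowest of the 6 genes with enough reads to be fitted.

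Rarg (chromosome 15 from 102234938 to 102257517) encodes RARγ and was the most abundant receptor of the retinoic acid class in every genotype, at 30.0 RPKM in WT beside 9.95 for Rara and 0.0696 for Rarb. It had 2986, 3028 and 2894 reads in WT, 5539, 6238 and 5451 in Atm-/-, and 6313, 6365 and 6729 in Sirt6-/-. Both knockouts lay above WT in all samples, by 0.81 (SE 0.05) and 1.07 (SE 0.05) on the log2 scale, and Sirt6-/- lay above Atm-/-. These differences are small beside those of the binding proteins but exceed the spread between replicates.

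Rarb (chromosome 14 from 16430839 to 16819156), whose promoter window holds the response element printed above, had 4, 10 and 8 reads in WT, 7, 11 and 0 in Sirt6-/-, and 28, 15 and 15 in Atm-/-. The Atm-/- samples stood above the others, by 1.25 (SE 0.52) on the log2 scale from WT. At 0.560 ± 0.215 CPM in Atm-/- the transcript stayed low, and a difference between Sirt6-/- and WT was not detectable at this depth.

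Cyp26b1 (chromosome 6 from 84571414 to 84593908), which hydroxylates retinoic acid for breakdown, was highest in Sirt6-/-. It had 1002, 972 and 958 reads in Sirt6-/-, 76, 48 and 56 in WT, and 105, 103 and 122 in Atm-/-. The Sirt6-/- level of 29.8 ± 1.02 CPM was 15.7 times that of WT (95% counting interval 13.5 to 18.3) and 9.36 times that of Atm-/-. Atm-/- was above WT without overlap, by 0.74 (SE 0.24) on the log2 scale.

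The further genes were tested in edgeR (quasi-likelihood), with p-values adjusted over all genes tested. In Atm-/- against WT, 37 of 58 had enough reads, of which 13 rose, 16 fell and 8 did not pass an adjusted p of 0.05. Over all genes 68.4% passed the test, 34.7% rising and 33.6% falling. With library totals in place of TMM scaling, which moved the median of all genes by 0.16 on the log2 scale, the split was 18 rising and 14 falling, and over all genes 6156 against 3326 in place of 4611 against 4469. In Sirt6-/- against WT 35 were tested, with 13 rising, 18 falling and 4 not passing, where 76.6% of all genes passed, 39.2% rising and 37.4% falling. Atm-/- against Sirt6-/- gave 14 higher, 15 lower and 8 not passing of 37, where 75.8% of all genes passed, 38.0% higher and 37.8% lower. The median log2 difference of the tested genes was 0.00, -0.26 and -0.07. The counts here and by list below include genes that passed the filter only through the genotype in which they were high. In Atm-/- against WT these included Rbp2, Rbp4 and Tbx5 among the risers and Aldh1b1 and Hoxd4 among the fallers. The counts are therefore descriptions only.

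Of the 8 genes of retinol transport and storage, 4 had enough reads to be tested in Atm-/- against WT and 3 in Sirt6-/- against WT. Rbp2 and Rbp4, with 0 and 4 WT reads in all, passed the filter only through the knockout in which they were high. No count of the list and no p-value of these genes is therefore read. Rbp4, the serum retinol carrier, had 2, 0 and 2 reads in WT, 12, 21 and 18 in Sirt6-/-, and 1262, 1460 and 1337 in Atm-/-. The genotypes did not overlap, and the log2 difference from WT was 9.73 in Atm-/- (SE 0.23) and 3.50 in Sirt6-/- (SE 0.73). Rbp2, a cellular retinol carrier of the intestine, had 57, 103 and 72 reads in Atm-/- and 0 in every WT sample, so it was at least 70.7-fold higher against a limit of 3 reads over the group. Fabp5, which can also carry retinoic acid, rose by 0.82 and 0.45. Lrat, which stores retinol as esters, and Ttr were at 0 reads in all samples.

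Enzymes between retinol and retinaldehyde changed both ways, with 3 rising and 3 falling of 11 tested in Atm-/- and 5 and 4 of 11 in Sirt6-/-, beside 68.4% and 76.6% of all genes called in the 2 comparisons. Rdh10, the main retinol dehydrogenase of the embryo, rose by 0.37 in Atm-/- (SE 0.11, adjusted p = 0.0101; 0.29 and not called without Atm-/- replicate 1) and by 1.10 in Sirt6-/- (SE 0.10, adjusted p = 1.52e-07). Dhrs9, another retinol dehydrogenase, rose by 1.80 and 3.07 (adjusted p = 1.93e-07 and 2.15e-11). Dhrs3, which reduces retinaldehyde back to retinol, fell by 1.38 and 1.29 (adjusted p = 0.000505 and 0.00019). Adh7, a retinol-oxidizing alcohol dehydrogenase, fell by 1.63 in Atm-/- (adjusted p = 2.4e-05) and by 3.90 in Sirt6-/-. It had 6, 12 and 24 reads in Sirt6-/- and passed the filter there only through WT, so that p-value is not read. Adh5 was at 0.00 and -0.05 (adjusted p = 0.986 and 0.44), the first being 0.17 and called with library totals.

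The other aldehyde dehydrogenases included falls of the same direction as Aldh1a1. Aldh1a7, a close paralog of Aldh1a1 on chromosome 19 from 20692953 to 20727562, fell by 2.65 in Atm-/- (adjusted p = 5.4e-06). In Sirt6-/- it fell by 4.78, and there it passed the filter only through WT, so that p-value is not read. How reads were divided between these copies is not given in the sources used here, so its values are uncertain. Its reads were 3.58 to 4.81% of those of Aldh1a1 in WT and 15.5 to 23.4% in Atm-/-, and 300, 33.3 and 200% in the Sirt6-/- samples, where both genes had 12 reads or fewer. Aldh1b1, a mitochondrial enzyme that can oxidize retinaldehyde, had 317, 234 and 298 reads in WT, 4, 12 and 10 in Atm-/- and 0 in every Sirt6-/- sample. It fell by 5.14 on the log2 scale in Atm-/- (SE 0.28). In Sirt6-/- it was at least 294-fold lower against a limit of 3 reads over the group. Aldh1b1 passed the filter only through WT, so its p-values are not read. Aldh2 rose by 0.31 and 0.70 (adjusted p = 5.04e-05 and 2.22e-08).

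Cyp26a1, the hydroxylase whose promoter element is printed above, did not follow Cyp26b1. It had 20, 12 and 11 reads in WT, 52, 39 and 41 in Atm-/-, and 0, 0 and 4 in Sirt6-/-. It rose in Atm-/- by 1.47 (SE 0.38, adjusted p = 0.00301) and fell in Sirt6-/- by 3.36 (SE 0.85), and the direct difference between the knockouts was 4.86 (SE 0.67). Cyp26a1 passed the filter for the comparisons with Sirt6-/- only through the other genotype, so their p-values are not read. All Sirt6-/- reads came from replicate 3, without which the fitted values, -6.87 from WT and 8.43 between the knockouts, depend on the prior count. Cyp26a1 and Cyp26b1 were of similar level in Atm-/- (0.751 and 0.705 RPKM), and Cyp26b1 made up most of the sum in Sirt6-/-. The Cyp26 sum was highest in Sirt6-/- (6.13 to 6.58 RPKM), ahead of Atm-/- (1.35 to 1.83) and WT (0.507 to 0.804).

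Of the other receptors, Rara rose in Sirt6-/- (0.55, SE 0.07, adjusted p = 4.62e-06) and was at 0.13 in Atm-/- (adjusted p = 0.128), or 0.29 and called with library totals. Rxra, a partner receptor at 13.5 RPKM in WT, rose in Sirt6-/- by 0.51 (adjusted p = 5.08e-07) and fell in Atm-/- by 0.20 (adjusted p = 0.00539), a fall that was -0.04 and not called with library totals. Rxrb rose by 0.22 and 0.34 (adjusted p = 0.00922 and 0.000942), and Rxrg was at 0 reads in all samples. Of the 6 coregulators, 1 rose and 4 fell in Atm-/- and 5 fell in Sirt6-/-. Over all genes 34.7% rose and 33.6% fell in Atm-/-, and 39.2% rose and 37.4% fell in Sirt6-/-. The coactivator Ncoa1 fell by 1.36 and 0.87 (adjusted p = 4.42e-09 and 3.81e-07), and the corepressor Ncor1 rose by 0.29 in Atm-/- (adjusted p = 3.16e-05) and was at 0.04 in Sirt6-/- (adjusted p = 0.478), or 0.12 and called with library totals.

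Of 15 genes known to respond to retinoic acid, 2 rose and 6 fell of 9 tested in Atm-/-. In Sirt6-/- 1 rose and 6 fell of 8 tested. Over all genes 34.7% rose and 33.6% fell in Atm-/-, and 39.2% and 37.4% in Sirt6-/-. The Atm-/- counts include Tbx5 and Hoxd4, which passed the filter only through 1 genotype. The 15 genes leave out the 9 genes above and Cyp26a1. Rarb and Cyp26a1, whose elements are printed above, stood 1.25 and 1.47 above WT in Atm-/- on the log2 scale. In Sirt6-/- Cyp26a1 was lower by 3.36, and Rarb had too few reads to be tested. Tgm2, a transglutaminase and widely used retinoic acid target, had 4129, 2590 and 3916 reads in WT, 674, 697 and 610 in Atm-/-, and 1152, 1237 and 1419 in Sirt6-/-. It fell by 2.56 (SE 0.13, adjusted p = 3.69e-10) and 1.53 (SE 0.13, adjusted p = 5.82e-08). Hoxd4, a homeobox gene with a retinoic acid responsive enhancer, fell by 5.70 in Atm-/- (SE 0.25) and 1.58 in Sirt6-/- (SE 0.17, adjusted p = 7.43e-07). It had 5, 6 and 6 reads in Atm-/- and passed the filter there only through WT, so that p-value is not read. Bhlhe40, a transcriptional repressor, fell by 1.94 and 2.20.

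The risers were Meis1, a homeobox cofactor, and Tbx5, a T-box factor of the forelimb and heart. Meis1 rose by 2.57 in Atm-/- (SE 0.13, adjusted p = 1.98e-10) and 1.95 in Sirt6-/- (SE 0.15, adjusted p = 2.09e-08). Tbx5 had 345, 353 and 365 reads in Atm-/- and 0 in every WT sample, at least 324-fold higher against a limit of 3 reads over the group, and 1 read in all of Sirt6-/-; it could be tested only through Atm-/-. These genes respond to other inputs as well, and Cdx1 and Stra8 were at 0 reads in all samples.

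**Figure D5:**
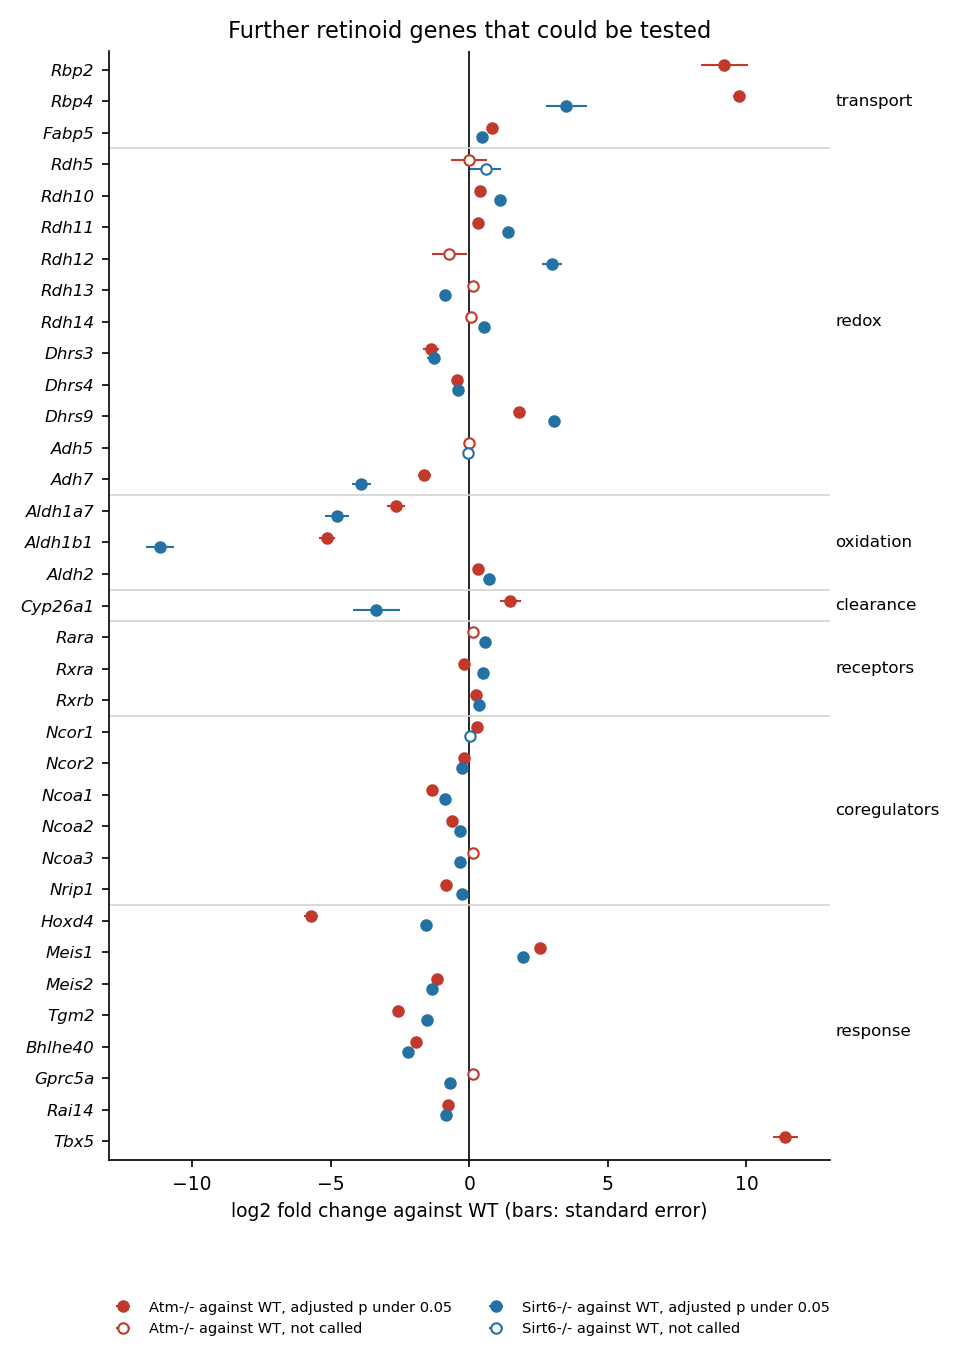
Fitted log2 fold changes from WT of further retinoid genes that could be tested, grouped by list, with Atm-/- in red, Sirt6-/- in blue, bars for the standard error and open points for genes that did not pass an adjusted p of 0.05; both comparisons share the WT samples. Rbp4, which passed the filter only through the knockouts, lies at 9.73 and 3.50, and Cyp26a1 has opposite signs (1.47 and -3.36). The points of Rbp2 and Tbx5 in Atm-/- and Aldh1b1 in Sirt6-/-, genes with a genotype at 0 reads, depend on the prior count.

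By level across the 9 samples, the genes most like Aldh1a2 among 11941 searched were 2010300C02Rik, Negr1, Dach1, Tspan8 and Tlx3, with a Pearson's r of log2(CPM + 0.5) from 0.9981 to 0.9984. The points form 2 sets, Atm-/- samples and the rest, and 99 genes exceeded an r of 0.99.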

How the data were processed

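For each of 9 samples the authors deposited read counts per gene for 24341 genes, whole numbers without normalization, from oligo(dT)-selected mRNA. The authors also deposited RPKM, made from these counts by dividing by the listed transcript length and by a read total per sample. The build is mm10 per the submitters' processing notes; aligner, counter and annotation are not given in the sources used here.

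Each pair of genotypes (6 samples) was fitted with edgeR 4.0.16 in R 4.3.3: filterByExpr, TMM, glmQLFit (prior count 0.125), glmQLFTest and Benjamini-Hochberg adjusted p under 0.05. Levels are CPM with TMM over all 9 samples. RPKM, as deposited and without TMM, were used to compare genes. They were also used for the sums of the Aldh1a, Crabp and Cyp26 transcripts, which are compared between genotypes. A log2 difference is first genotype minus second, with its standard error from the F statistic. The limit of detection is 3 reads, and ratios of summed reads carry exact 95% counting intervals. The test was checked on simulated counts with 200 changed genes. Samples of 1 genotype shared no identical counts and differed beyond counting noise, so all 9 were kept.

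The 9 genes and all lists were chosen with earlier results of these data known. Named were the 9 genes, list genes (in each list the largest called changes first, and receptors), Atm, Sirt6, Trp53, cell type markers, and the 5 genes with the highest r to Aldh1a2 among those of at least 1 CPM in Atm-/-. Some list genes are counted but not reported here by name. Marker lists were fibroblast, mesothelial or epicardial, epithelial, endothelial, haematopoietic and neural. Positions come from GENCODE M21 (GRCm38) and promoters from RefSeq (GRCm38.p6). Alternatives were DESeq2 size factors, library totals, a stricter and no filter, all 9 samples in 1 fit, a replicate block, DESeq2 1.42.0, samples left out, a 2-fold threshold and a prior count of 2.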

Additional observations from a re-analysis of the deposited data

Results flagged for a closer look

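Cyp26a1 and Rxra were flagged among the further retinoid genes for opposite directions in the knockouts (edgeR quasi-likelihood, p-values adjusted over all genes). Of these, only Rxra has p-values that are read in every comparison. Cyp26a1 rose in Atm-/- and fell in Sirt6-/-, with a log2 difference of 4.86 between them (SE 0.67), from 132 reads in Atm-/- and 4 in Sirt6-/- in all. The 4 reads came from 1 sample, and Cyp26a1 passed the filter for both comparisons with Sirt6-/- only through the other genotype. Those p-values are not read. Rxra fell in Atm-/- and rose in Sirt6-/-, with a log2 difference of -0.69 (SE 0.05, adjusted p = 1.94e-10), and its fall in Atm-/- was not called with library totals.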

How the results depend on the processing

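The counts of genes called kept within 1.5 times their main values (9080, 10114 and 10205 of all genes and 29, 31 and 29 of the further retinoid genes, for Atm-/- against WT, Sirt6-/- against WT and Atm-/- against Sirt6-/-) under every alternative run except the 2-fold threshold, which left 2983, 3872 and 3433 genes and 16, 16 and 14 retinoid genes, since it asks for more. Leaving out a sample gave 8545 to 9240, 9651 to 10217 and 9896 to 10007 genes, and 28 to 30, 31 to 35 and 30 to 33 retinoid genes. Replicate numbers were not tied to a shared source, and samples with the same number deviated together with an r of -0.0151 to 0.0588; with the number as a replicate block 8833, 10041 and 10157 genes and 29, 31 and 30 retinoid genes were called, and 0, 3 and 3 of 6 samples correlated best with their own number. Of the members, Stra6 in Sirt6-/- against WT (-0.10) reversed to 0.16 without WT replicate 1 and 0.27 without Sirt6-/- replicate 2, with a range of -0.40 to 0.27 over samples left out; the cause was not tested. Aldh1a2 in Atm-/- against WT ranged from 6.49 to 10.28 with samples left out and was 5.67 with a prior count of 2. The Nrip1 fall in Sirt6-/- (-0.27, adjusted p = 0.0168) was not called with library totals (-0.18) or without Sirt6-/- replicate 2 or 3 (-0.23 each), and lay between -0.33 and -0.23 with any sample left out. Depth limits Aldh1a3, Rarb and, outside Atm-/-, Aldh1a2 and Stra6 to counts of reads near the limit of detection. The same holds for Aldh1a1 in Sirt6-/- (2, 12 and 6 reads) and Crabp2 in WT (6, 8 and 9 reads).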

Other observations

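Of the 9 genes, 3 lie on chromosome 9, which also carries Atm (53439149 to 53536740, GRCm38). Crabp1 is 1.23 Mb, Stra6 4.53 Mb and Aldh1a2 17.7 Mb from it, and Rbp2 lies 44.9 Mb away. Of 92 tested genes within 5 Mb of Atm, members left out, 11 rose and 53 fell (57.6%) in Atm-/- (edgeR quasi-likelihood, p-values adjusted over all genes). Their median log2 difference was -0.43. In Sirt6-/- 30 rose and 39 fell, with a median of 0.006. Over all genes tested 34.7% rose and 33.6% fell in Atm-/-, and 39.2% rose and 37.4% fell in Sirt6-/-.

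Chromosome medians were taken over tested genes with an average log2 CPM of at least 1 and a single annotated position. The median log2 difference of Atm-/- from WT was -0.352 over 607 such genes of chromosome 9, -0.493 for chromosome 16 and 0.394 for chromosome 13. Over 10488 such autosomal genes it was -0.0116. Falls were called in 65.4% of these chromosome 9 genes, 80.2% of those of chromosome 16 and 36.7% over the autosomes. In Sirt6-/- chromosome 1 was at -0.459 and chromosome 4 at 0.31, and chromosome 9 at -0.0781. These medians and shares stand beside the values of Aldh1a2, Crabp1 and Stra6 without a test of their part in them.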
